A study of Homo sapiens with 6 samples.

Results

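The 8 genes described here write, copy and erase DNA methylation: DNMT1, UHRF1 and HELLS, which maintain it, DNMT3A and DNMT3B, which place it de novo, and TET1, TET2 and TET3, which oxidise it. They were chosen by name, and peaks of E2F1 and of H3K27me3 were collected within 1000 bp of any of their transcription start sites (TSSs) and over their gene bodies, among 19962 protein-coding genes in all. The data are peak lists from chromatin immunoprecipitation with sequencing in MDA-MB-231, an established cell line from a human triple-negative breast cancer. The E2F1 libraries came from untreated cells, from cells kept for 72 h in the solvent DMSO, and from cells kept for 72 h in 1 µM GSK126, an inhibitor of the H3K27 methyltransferase EZH2. The H3K27me3 libraries came from cells transduced for 24 h with lentivirus for a control shRNA or for one targeting E2F1 (shE2F1), both then selected for 72 h with 2 µg/ml puromycin. Each of these 5 groups is 1 library of the same cell line, so no difference between groups has a replicate check and no p-value is given. Peak lists hold no RNA or protein values, so the knockdown of E2F1 and the action of GSK126 were not checked here.

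DNA methylation is copied at each round of replication. UHRF1 recognises hemimethylated CpG sites behind the replication fork and brings in DNMT1, the maintenance methyltransferase, and HELLS is a chromatin remodeller that opens nucleosomal DNA for methylation. The TET dioxygenases convert methylcytosine to hydroxymethylcytosine and further oxidised bases, which can be lost by dilution or by excision repair. E2F1 is a transcription factor that activates genes of DNA replication at the start of S phase, and H3K27me3 is the repressive mark of polycomb repressive complex 2.

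The fold enrichment of a peak is the ratio of the immunoprecipitated signal to the background, as deposited, and an E2F1 peak counted for a promoter if the summit was no more than 1000 bp from a TSS. E2F1 peaks were present at the promoters of DNMT1, UHRF1 and HELLS in all 3 E2F1 lists, of DNMT3B and TET2 in DMSO and GSK126 only, of TET3 in GSK126 only, and of DNMT3A and TET1 in none. These are 3 of 8 genes in untreated cells, where 5.85% of all protein-coding genes had such a peak, 5 of 8 in DMSO against 33.5%, and 6 of 8 in GSK126 against 51.5%. The GSK126 count is thus close to its background. Depth differed between the lists: the lowest background, taken as a measure of fragments per base, was 0.668 in untreated, 1.82 in DMSO and 1.70 in GSK126.

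**Figure D1:**
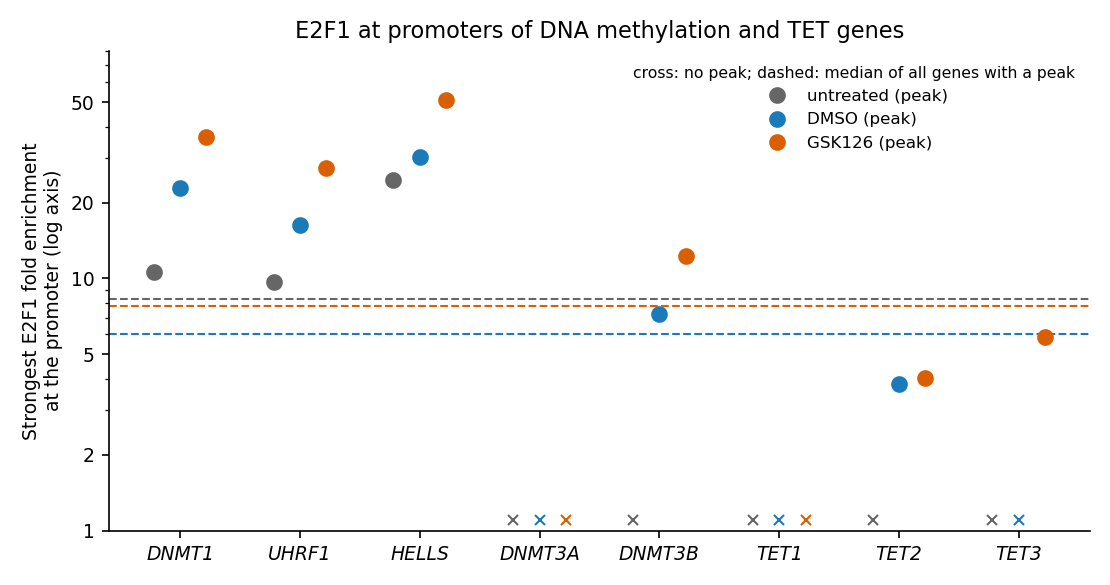
Strongest E2F1 fold enrichment at the promoter of each gene (log axis) in the untreated, DMSO and GSK126 lists, 1 library each. Crosses mark genes without a promoter peak and dashed lines the median over all genes with a promoter peak. HELLS, DNMT1 and UHRF1 lie above the median in all 3 lists, DNMT3B above it in DMSO and GSK126, and TET2 and TET3 below it.

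Among the maintenance genes, HELLS had the strongest E2F1 enrichment. Fold enrichment there reached 24.7 without treatment, 30.3 with DMSO and 51.1 with GSK126, which ranked 16 among 1167 untreated, 72 among 6696 DMSO and 84 among 10276 GSK126 target genes. The gene lies on chromosome 10 from 94545329 to 94613905 (GRCh38, plus strand), and the 3 summits lay 43 to 53 bp downstream of its canonical TSS at 94545788, in a UTR exon. The number of fragments at the summit was 46 (exact 95% Poisson interval 33.7 to 61.4) in untreated cells, 163 (139 to 190) in DMSO and 259 (228 to 293) in GSK126. All such intervals cover counting error only. The peak was 415 bp wide without treatment, 1199 bp in DMSO and 2082 bp in GSK126, where the median width over each whole list was 302, 436 and 618 bp.

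DNMT1 lies on chromosome 19 from 10133342 to 10231286 on the minus strand. The fold at its canonical promoter was 10.7 without treatment, 22.9 with DMSO and 36.5 with GSK126, from 23 (14.6 to 34.5), 136 (114 to 161) and 222 (194 to 253) fragments. The untreated summit lay 33 bp downstream of the canonical TSS at 10194953, in the UTR exon of the canonical transcript. The DMSO and GSK126 summits lay 314 and 276 bp downstream, in the intron that follows. The untreated summit rests on 23 fragments, and whether the summits differ beyond counting error was not tested.

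UHRF1, on chromosome 19 from 4903080 to 4962154 on the plus strand, had a fold of 9.65 without treatment, 16.2 with DMSO and 27.3 with GSK126. The fragments at the summit numbered 21 (13.0 to 32.1), 114 (94.0 to 137) and 180 (155 to 208). Its 3 summits lay within 10 bp of each other, 470 to 480 bp downstream of the canonical TSS at 4909501, in an intron and upstream of a further annotated TSS. Within the untreated list DNMT1 ranked 330 and UHRF1 423 among 1167 target genes. UHRF1 was also the only member with an E2F1 peak in its gene body away from promoters, which spanned 4914124 to 4914489 in GSK126, was enriched 7.14 times and had its summit in an intron 4743 bp past the canonical TSS. Per 100 kb of gene body the members had 0.128 such peaks in GSK126, beside 0.172 over all genes. In DMSO they had 0 beside 0.265, and in untreated cells 0 beside 0.00661.

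The genome sequence under these summits is shown because an E2F motif lay within 100 bp of every one of them. The motif, on either strand, was the E2F site TTCCCGC, or the variant that reads TTCGCGC, or the form that reads TTGCCGC, or lastly the form that reads TTGGCGC. It is in capitals below, in hg38 reference sequence read 5′ to 3′ on the strand of the gene. The DNMT1 window is centred on the GSK126 summit (chr19:10194617-10194737, minus strand) and holds 3 matches, of which a pair overlaps in the palindrome in the second run of capitals. The UHRF1 window is centred in the same way (chr19:4909911-4910031, plus strand). For HELLS a shorter stretch around the motif is given (chr10:94545771-94545797, plus strand).
DNMT1: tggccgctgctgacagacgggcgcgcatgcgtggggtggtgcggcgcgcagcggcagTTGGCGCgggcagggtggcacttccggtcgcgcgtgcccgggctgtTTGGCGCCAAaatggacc
UHRF1: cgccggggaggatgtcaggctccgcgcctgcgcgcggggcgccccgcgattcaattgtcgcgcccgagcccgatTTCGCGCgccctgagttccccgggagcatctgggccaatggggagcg
HELLS: tgacaggattTTCCCGCgaaggagaag

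In DNMT1 the first run of capitals is centred on the GSK126 summit, and the palindromic pair lay 46 and 49 bp from it. The untreated DNMT1 summit was near a different match, GCGCGAA on the gene's strand (the reverse complement of TTCGCGC), which starts 2 bp upstream of the canonical TSS and was centred 32 bp from the summit. In UHRF1 the same TTCGCGC, which begins 484 bp downstream of the canonical TSS, lay 7, 8 and 17 bp from the untreated, DMSO and GSK126 summits. In HELLS the TTCCCGC that ends at the base before the canonical TSS was centred at −57, −47 and −53 bp from the untreated, DMSO and GSK126 summits. A match stood no more than 100 bp from 55.1% of untreated, 35.8% of DMSO and 30.9% of GSK126 promoter summits, and in 12.3% of the windows of that length around the canonical TSSs of all protein-coding genes.

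**Figure D2:**
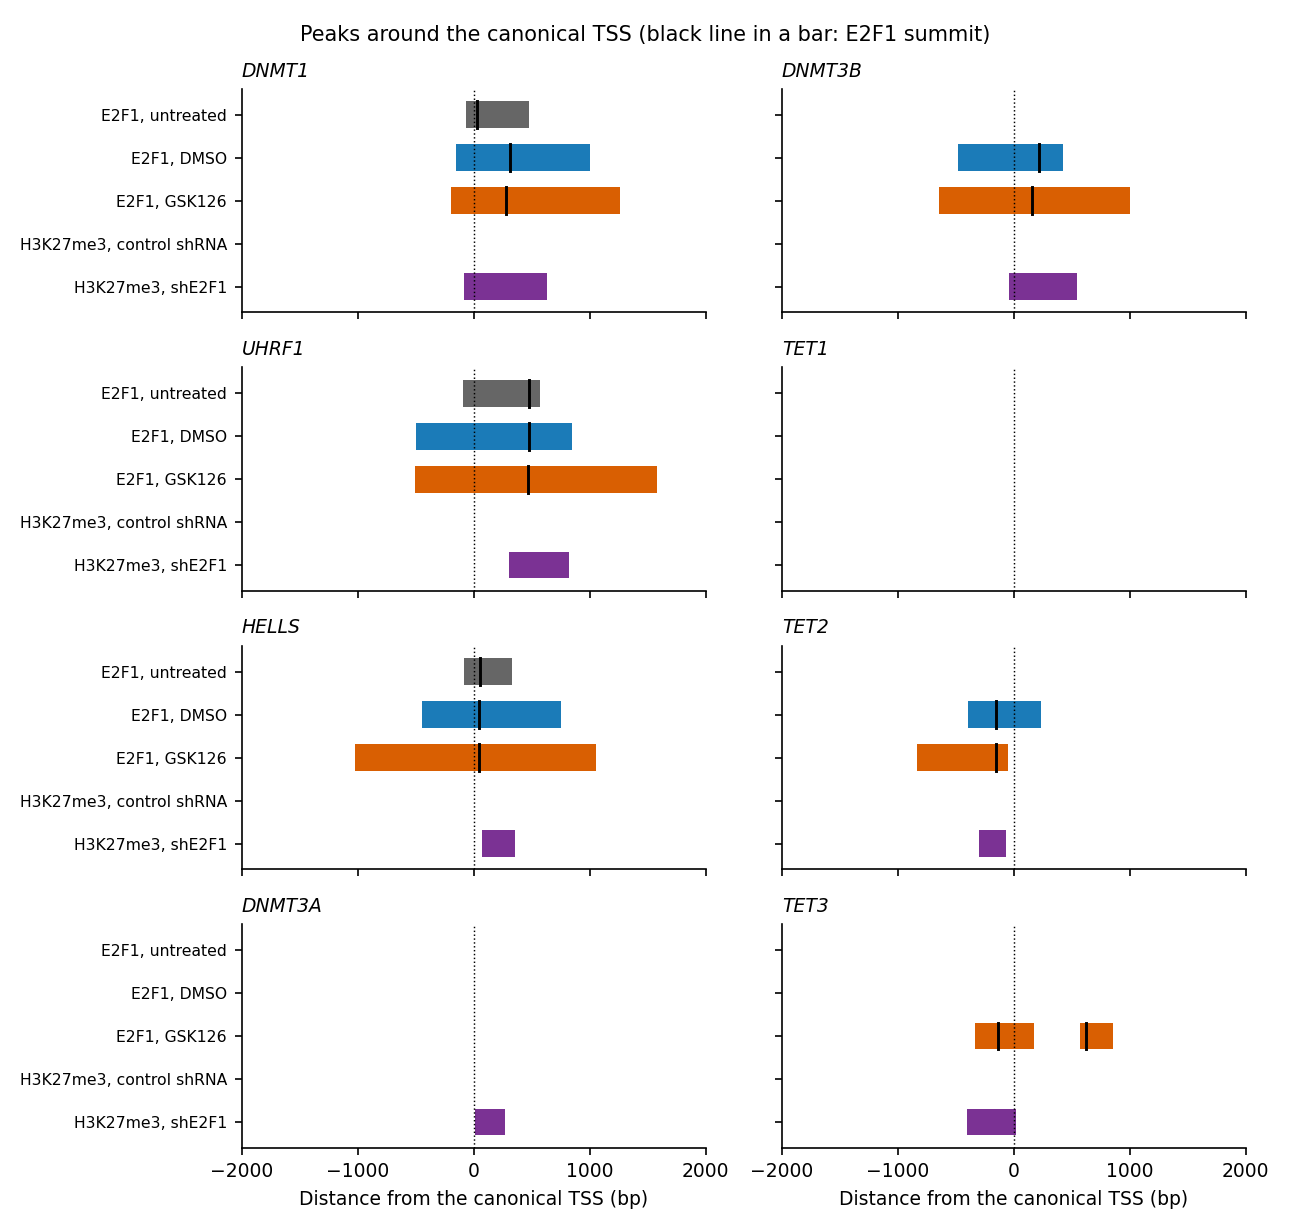
Peaks within 2000 bp of the canonical TSS of each gene, drawn to scale along the direction of transcription, with 1 row for each of the 5 lists. Black lines in the E2F1 bars mark summits. E2F1 peaks of HELLS, DNMT1 and UHRF1 widen from untreated to DMSO to GSK126, as the median peak of the lists does (302, 436 and 618 bp), and the H3K27me3 peaks, all in shE2F1, lie within or next to the E2F1 peaks except at DNMT3A, which has no E2F1 peak. A pair of H3K27me3 peaks at an upstream DNMT1 TSS falls outside the drawn range.

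Of the de novo methyltransferases, DNMT3B had an E2F1 promoter peak and DNMT3A had none. DNMT3B, on chromosome 20 from 32762385 to 32809359 on the plus strand, had no untreated peak, a fold of 7.20 in DMSO from 46 (33.7 to 61.4) fragments and a fold of 12.3 in GSK126 from 74 (58.1 to 92.9) fragments. Both summits lay in a UTR exon, 220 and 161 bp downstream of the canonical TSS at 32762385. The motif match there, chr20:32762511-32762537 on the plus strand, reads as follows, with GCGGCAA being the reverse complement of TTGCCGC. It was centred 22 bp from the GSK126 summit and 81 bp from the DMSO summit.
DNMT3B: gggcgagcggGCGGCAAcgctgcccgg

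DNMT3A, on chromosome 2 from 25227855 to 25342590 on the minus strand, has 15 annotated TSSs and had no E2F1 peak at any of them or in its body. The E2F1 peak nearest to its canonical TSS lay 34.9 kb away in GSK126, 332 kb away in DMSO and 548 kb away in untreated cells. No E2F motif was found within 1000 bp of the canonical TSS of DNMT3A, whereas 49.1% of all protein-coding genes had a match in that window. TET1, which also had no E2F1 peak, had 1 match there, as did DNMT3B, TET2 and TET3.

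The TET genes ranged from weak E2F1 peaks to none. TET2, on chromosome 4 from 105145875 to 105279816 on the plus strand, had a fold of 3.82 in DMSO and 4.04 in GSK126, each from 23 (14.6 to 34.5) fragments. Its summits lay at −152 and −151 bp from the canonical TSS at 105146876, in a UTR exon of another transcript. TET2 ranked 5865 among 6696 DMSO and 9471 among 10276 GSK126 target genes, which places it among the weakest promoter peaks of both lists. No motif lay within 100 bp of its summits.

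TET3, on chromosome 2 from 73984910 to 74108176 on the plus strand, had a pair of GSK126 peaks and none in the other lists. The summits lay at −138 bp from the canonical TSS, with a fold of 4.73 from 18 (10.7 to 28.4) fragments, and 627 bp downstream in an intron, with a fold of 5.85 from 23 (14.6 to 34.5) fragments. The nearest DMSO peak to the TSS lay 156 kb away. The upstream site is shown because it held the only motif match at a TET summit, GCGGGAA, the reverse complement of TTCCCGC, 9 bp from the summit (chr2:73984712-73984832, plus strand). The TSS of a long noncoding RNA, ENSG00000235499, lies 222 bp from that of TET3, so the peaks cannot be assigned to either gene alone.
TET3: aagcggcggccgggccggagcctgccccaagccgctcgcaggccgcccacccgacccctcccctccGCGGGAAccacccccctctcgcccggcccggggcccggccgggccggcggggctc

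TET1, on chromosome 10 from 68560337 to 68694487 on the plus strand, had no peak of any kind at its single annotated TSS or in its body, in any of the 5 lists. The nearest E2F1 peaks lay 32.7 kb from its TSS in DMSO, 32.6 kb in GSK126 and 88.3 kb in untreated cells.

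In GSK126 the order of fragments at the summit was HELLS, DNMT1, UHRF1, DNMT3B and then TET3 and TET2. The intervals of HELLS and DNMT1 overlapped, as did those of DNMT1 and UHRF1, whereas those of UHRF1 and DNMT3B, and of DNMT3B and the TET genes, did not. TET3 and TET2 had 23 fragments each, and their folds differed because the background at the summit was 3.10 fragments at TET3 and 4.94 at TET2.

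The depth of the untreated library was compared with that of DMSO. Scaled by the ratio of the lowest backgrounds, the DMSO summit of TET2 would give 8.44 fragments in untreated cells, and that of DNMT3B 16.9. Untreated peaks called at a like background, within 1.2 times of the scaled one, held at least 11 fragments, and the fewest in any untreated peak was 7. At the 3 genes with an untreated peak, 23 fragments were found at DNMT1, 21 at UHRF1 and 46 at HELLS. Scaling gave 49.9, 41.9 and 59.8, above the number found at each. At DNMT1 and UHRF1 the scaled numbers lay above the exact intervals of 14.6 to 34.5 and 13.0 to 32.1. At HELLS the scaled number lay inside the interval of 33.7 to 61.4. The scaled backgrounds at DNMT1, UHRF1 and HELLS, 1.83, 2.23 and 1.62, were also above the untreated ones found, 1.25, 1.28 and 0.905. The like background used for DNMT3B and TET2 may thus be too high as well. Whether depth has a part in the missing untreated peaks of DNMT3B and TET2 cannot be told from these numbers.

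GSK126 and DMSO were then compared at the 5 genes with a promoter peak in both, to describe E2F1 enrichment with and without EZH2 inhibition. The fold was higher in GSK126 by 1.59 times at DNMT1, 1.68 times at UHRF1, 1.69 times at HELLS, 1.70 times at DNMT3B and 1.06 times at TET2. It was at least 1.5 times higher at 4 of the 5, as it was at 67.7% of the 6537 genes with a peak in both lists. The log2 ratios were 0.67, 0.75, 0.76, 0.77 and 0.08, and their median of 0.75 stood beside a median of 0.73 over all these genes, with quartiles of 0.50 and 0.93. DNMT1, UHRF1, HELLS and DNMT3B were thus within the quartiles of the whole list.

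TET2 stood apart from the others. Its log2 ratio differed from the median of all genes by −0.65, and 4.56% of genes had a lower one. Taken as fragments at the summit over the lowest background, the log2 ratio of TET2 was 0.10 with an exact interval of −0.80 to 1.00, so the difference from the other genes was within counting error. The same measure was 0.80 (0.49 to 1.12) at DNMT1, 0.76 (0.41 to 1.11) at UHRF1, 0.77 (0.48 to 1.06) at HELLS and 0.78 (0.23 to 1.35) at DNMT3B.

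**Figure D3:**
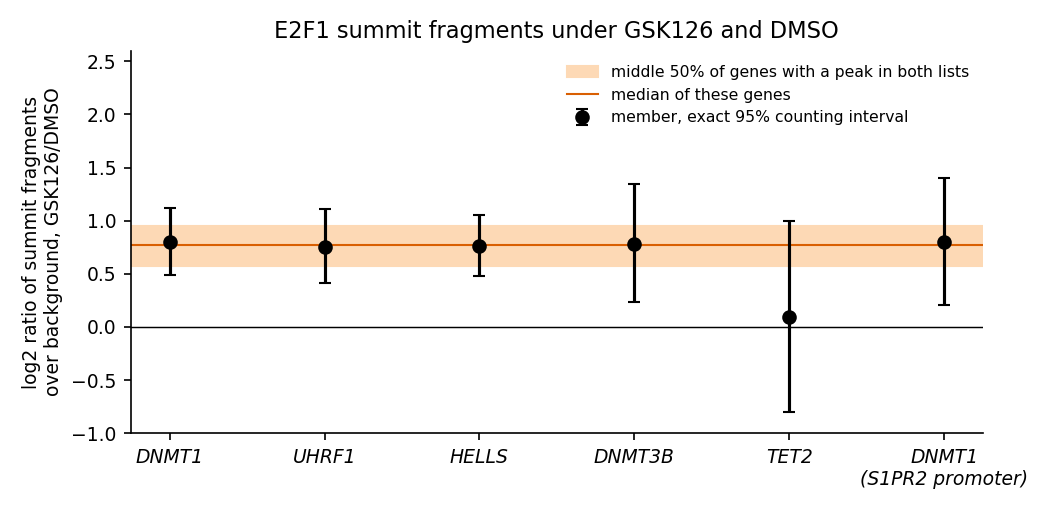
Log2 ratio, GSK126 over DMSO, of fragments at the E2F1 summit divided by the lowest background of each library, with exact 95% intervals for counting error. The band spans the middle 50% of 6537 genes with a peak in both lists, 0.57 to 0.95, and the line in it their median, 0.77. All sites but TET2 lie in the band, and the interval of TET2 also reaches it.

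An upstream DNMT1 TSS had E2F1 peaks of its own, with summits at −36213 bp in DMSO and −36161 bp in GSK126 from the canonical one. The peaks had a fold of 6.28 in DMSO and 10.8 in GSK126, from 40 and 65 fragments, and no untreated counterpart. This TSS, at 10231286, lies 45 bp from that of S1PR2, a sphingosine-1-phosphate receptor gene transcribed in the same direction, so the peaks belong as much to the S1PR2 promoter. No motif lay within 100 bp of these summits. Over all 8 GSK126 promoter summits of the members, 5 had the motif, beside 30.9% of the GSK126 promoter summits of all genes.

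H3K27me3 was compared between control shRNA and shE2F1 to describe the mark at these genes with and without E2F1 knockdown, counting a broad peak at a promoter from 1 bp of overlap. A peak was present at 1 of 8 genes in control shRNA, where 27.1% of all protein-coding genes had it, and at 7 of 8 in shE2F1, where 51.2% did. It was present only in shE2F1 at UHRF1, HELLS, DNMT3A, DNMT3B, TET2 and TET3, or 6 of 8 genes against 26.0% of all genes, and only in control shRNA at none, against 1.94%. Of genes with an E2F1 promoter peak in both DMSO and GSK126, 43.5% had H3K27me3 only in shE2F1, and 4 of the 5 such members did. Of genes with no E2F1 promoter peak in any list 11.5% did, and of the members in that class DNMT3A did and TET1 did not.

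These H3K27me3 peaks were weak. The fold in shE2F1 was 2.40 at UHRF1, 2.65 at HELLS, 3.17 at DNMT3A, 2.61 at DNMT3B, 2.48 at TET2 and 2.92 at TET3, and −log10 q values were 1.22, 1.51, 1.99, 1.52, 1.25 and 1.63. The lowest −log10 q in the list was 1.01, and the median of the strongest promoter peak over all genes with one was 2.16. With −log10 q required to reach 2, DNMT1 alone of the 8 genes kept a peak in shE2F1, whereas 28.9% of all protein-coding genes did.

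DNMT1 carried the strongest of these peaks, at its canonical promoter in shE2F1 from 10194323 to 10195039, enriched 3.69 times at a −log10 q of 3.74. Its midpoint lay 4 bp from the E2F1 summit of GSK126. The control shRNA peak counted for DNMT1 lay elsewhere, from 10230219 to 10230544 beside S1PR2, enriched 2.68 times at a −log10 q of 1.59. In shE2F1 a peak lay there from 10230153 to 10230445 with a fold of 2.43. Both overlapped the 1000 bp promoter window of S1PR2 and the annotated TSS of the microRNA gene MIR4322 at 10230413. They cannot be assigned to 1 gene alone. At the canonical promoter of DNMT1 the mark was therefore called only in shE2F1 as well.

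**Figure D4:**
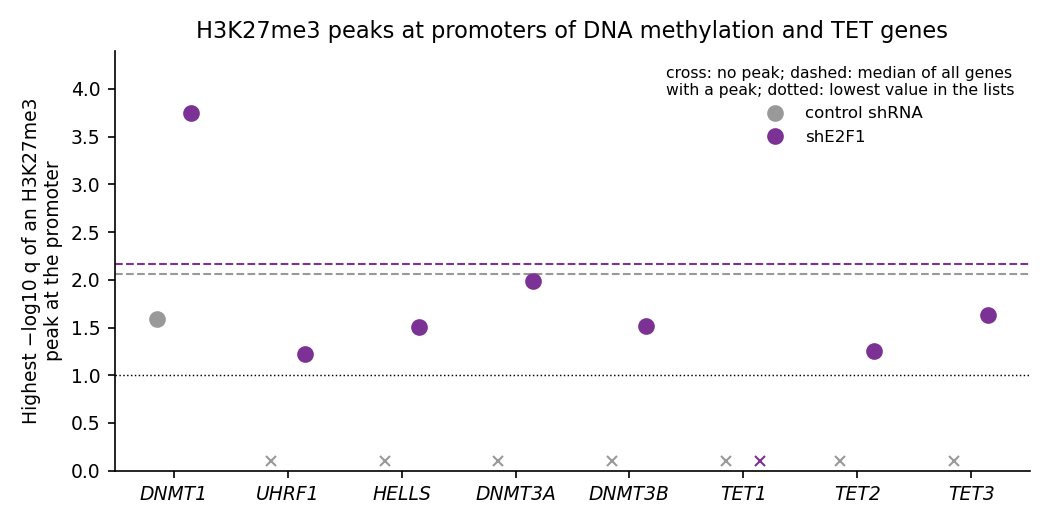
Highest −log10 q of an H3K27me3 peak at the promoter of each gene in control shRNA and shE2F1, 1 library each, with crosses where no peak was called. Dashed lines give the median over all genes with a promoter peak, 2.06 in control shRNA and 2.16 in shE2F1. Only the shE2F1 value of DNMT1, 3.74, is above them, and the control shRNA point of DNMT1 is the peak beside S1PR2.

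The shE2F1 peaks of UHRF1, HELLS, DNMT3B and TET2 lay wholly inside the E2F1 peak of GSK126, as did that of the canonical DNMT1 promoter, and 84.2% of the TET3 peak did. They were 234 bp wide at TET2, 283 bp at HELLS, 423 bp at TET3, 516 bp at UHRF1, 586 bp at DNMT3B and 717 bp at DNMT1, against a median of 811 bp in the whole list. The DNMT3A peak was 266 bp wide, from 25341651 to 25341916, with its midpoint in an intron 141 bp downstream of the canonical TSS. The further shE2F1 peak of DNMT1, beside S1PR2, had 0 bp under an E2F1 peak of GSK126. The overlap depended on the E2F1 list, and GSK126 had the widest E2F1 peaks, with a median of 618 bp beside 436 bp in DMSO. In DMSO the E2F1 peak of DNMT3B ended at 32762809, inside its H3K27me3 peak, and TET3 had no E2F1 peak. The untreated E2F1 peaks of DNMT1, UHRF1 and HELLS each covered only part of the H3K27me3 peak. How often shE2F1 promoter peaks of all genes lie inside E2F1 peaks was not computed. Peaks of H3K27me3 were also called at the promoters of the highly expressed genes ACTB, enriched 3.36 times in control shRNA and 3.59 times in shE2F1, and GAPDH, with a fold of 3.29 in shE2F1 only. Of HOXA9, HOXB9, HOXC9 and HOXD9, usual carriers of the mark, only HOXA9 had a promoter peak, in control shRNA with a fold of 2.75. What part signal at open promoters has in the members' peaks was not tested.

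H3K27me3 peaks covered little of the gene bodies, at most 1.15% in either library. In control shRNA 0.333% of the DNMT1 body lay under H3K27me3 peaks and none of the other 7 bodies had any, where 65.9% of all genes had none. In shE2F1 the covered share was 1.15% at DNMT3B, 1.03% at DNMT1, 0.873% at UHRF1, 0.413% at HELLS, 0.232% at DNMT3A, 0.175% at TET2 and 0.0146% at TET3. TET1 had none, as did 43.2% of all genes. The median over the 8 genes in shE2F1 was 0.322%, near the 0.392% over all genes, but the upper quartile of all genes was 5.10% and no member came near it. The share also depends on gene length, since the same peak is a smaller part of a longer gene. The members were 47.0 to 134 kb long, and genes of like length were not compared. Every H3K27me3 peak in a member body was one of the promoter peaks already given.

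The pathway was widened to 29 genes that act with these enzymes, all of them found in the annotation. They are partners, readers, and base excision and cofactor enzymes of DNA methylation and demethylation. The 4 with the highest untreated E2F1 promoter fold are named first, so their values do not stand for the whole list. An E2F1 promoter peak was present at 5 of 29 in untreated cells, 16 of 29 in DMSO and 25 of 29 in GSK126, beside 5.85%, 33.5% and 51.5% of all genes. PCNA, the replication clamp that holds DNMT1 at the fork, had a fold of 24.7 without treatment, 42.4 with DMSO and 70.5 with GSK126. CDCA7L, a relative of the HELLS partner CDCA7, had 13.1, 21.3 and 33.7, and CDCA7 itself had 9.38, 26.8 and 41.1. LIG1, the replicative DNA ligase, had 8.41, 27.1 and 47.1. The fifth gene was AHCY, which removes the S-adenosylhomocysteine left by methyltransferases and is named here after its values were seen, with 5.91, 11.3 and 19.8. The 4 genes with no E2F1 promoter peak were DNMT3L, the catalytically inactive partner of DNMT3A, and CXXC4, NEIL1 and ZBTB38.

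H3K27me3 was present at 5 of these 29 promoters in control shRNA and at 12 in shE2F1, only in shE2F1 at 8 and only in control shRNA at 1, CXXC4, with a fold of 3.51. Over all genes the shares were 27.1%, 51.2%, 26.0% and 1.94%, so the pathway counts were near or below the background. At PCNA and CDCA7 no H3K27me3 peak was called in either library, whereas LIG1 had a peak enriched 3.73 times and CDCA7L 2.64 times, both only in shE2F1. AHCY had the strongest H3K27me3 peaks of the list, enriched 8.72 times in control shRNA and 15.0 times in shE2F1. The GSK126 fold was at least 1.5 times the DMSO fold at 12 of the 16 pathway genes with a peak in both lists, with a median log2 ratio of 0.70, beside 67.7% and a median of 0.73 over all genes.

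Genes of like pattern were looked up for HELLS and DNMT1 by the Euclidean distance over 5 values, the log2 of the strongest promoter fold in each list, with 0 where no peak was present. The nearest to HELLS was E2F3, at a distance of 0.120, with folds of 24.1 without treatment, 31.3 with DMSO and 52.3 with GSK126, followed by POGLUT3 at 0.336. The nearest to DNMT1 were DLG2 at 0.519 and GINS3 at 0.536, with control shRNA H3K27me3 folds of 3.69 and 3.46. The control shRNA value used for DNMT1, 2.68, came from the peak beside S1PR2, whereas its other values came from the canonical promoter. Its profile thus mixes different promoters.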

How the data were processed

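The authors sequenced paired-end reads, checked them with FastQC 0.11.5, trimmed them with cutadapt 4.5, aligned them to GRCh38 with Bowtie2 2.5.2 and called peaks per library with MACS2 2.2.9.1, narrow for E2F1 and broad for H3K27me3. By the study's methods chromatin was sonicated for E2F1 and digested with micrococcal nuclease for the histone mark, whereas the labels give sonication for all samples. Which control library entered each call is not given in the sources used here. The deposited lists give each peak's fold, a ratio to background with a pseudocount of 1 (averaged over broad peaks), the −log10 p and −log10 q, and the summit offset. The deposited score, 10 times the −log10 q, was not used. The untreated input sample was not analysed here.

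Genes and TSSs came from GENCODE release 44. The members and lists were chosen with earlier results of these data known. All 8 members are named, with pathway and like-pattern genes by the rules given beside them; the like-pattern result for UHRF1 is not reported here. Fragments and background at each E2F1 summit were solved from the fold and p-value, which succeeded for 1056, 15703 and 14276 of the peaks, that is, all of them, within a relative error of 0.0001. The solver was tested on simulated data. Intervals are exact at 95%, from scipy 1.17.1. With 1 library in each group no test between groups was run. Alternatives covered the peak threshold, promoter width and definition, TSS set, list length, fold measure and motif.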

Additional observations from a re-analysis of the deposited data

How the results depend on the processing

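The 14 results were recomputed under 15 alternatives, giving 81 values. Of these 66 stayed near the reported value, and 15 moved further. Near means within 1.5 times a count or percent. For the log2 ratio it means between the medians of the members' lower and upper interval bounds. Only the ratio could change direction, since counts and percents cannot fall below 0, and it did not. The E2F1 promoter counts of 3, 5 and 6 genes and the median log2 ratio of GSK126 over DMSO were among those that stayed. The H3K27me3 calls depended on the peak threshold. With −log10 q required to reach 5, members with a promoter peak fell to 0 in control shRNA and 0 in shE2F1, those only in shE2F1 to 0, and the median covered share of the gene body in shE2F1 to 0%. With 2 required these were 0, 1, 1 and 0%. The control shRNA count of 1, which is the peak beside S1PR2, was 0 with promoters of 500 bp and 0 with the canonical TSS only. E2F1 peaks away from promoters then numbered 2 in GSK126 with promoters of 500 bp, and 1 in DMSO and 2 in GSK126 with the canonical TSS only. Without promoters the median covered share of gene bodies in shE2F1 was 0%. The longer motif, with a further T at its 5′ end, was present at 3 of the 8 GSK126 sites rather than 5. Over the GSK126 promoter summits of all genes the longer motif was present at 8.29%. For the H3K27me3 lists depth at single peaks is unknown, since broad peaks hold averages.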

Other observations

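The surroundings of the members differed from gene to gene in H3K27me3. The whole list covered more in shE2F1, 179 Mb, than in control shRNA, 143 Mb. The shares below were not computed for windows around other genes. Within 100 kb on either side of the gene, 11.5% of the DNMT1 window lay under peaks in control shRNA and 16.0% in shE2F1, and the strongest peak there had a −log10 q of 8.02 and 36.7. The shares were 5.41% and 8.45% for HELLS and 3.53% and 4.81% for DNMT3A. They were 0.433% and 0.981% for UHRF1, 0.343% and 0.915% for DNMT3B, and 1.12% and 0.779% for TET3, the only member with a lower share in shE2F1. The TET1 and TET2 windows had no peak in control shRNA and 0.0631% and 0.452% covered in shE2F1. The −log10 q of the strongest peak was also higher in shE2F1 at UHRF1, DNMT3A and DNMT3B. It was lower there at HELLS, 3.56 in control shRNA and 2.39 in shE2F1, and at TET3, 2.00 and 1.63.

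The only H3K27me3 peak in the TET1 window, in shE2F1 spanning 68527415 to 68527625 of chromosome 10 and enriched 4.24 times, lay at the promoter of the neighbouring gene SLC25A16. It overlapped an E2F1 peak of DMSO (68527306 to 68527602, fold 3.66) and lay inside one of GSK126 (68527188 to 68527775, fold 4.53).

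The genes without an E2F1 peak did not share a base composition. Within 500 bp of the canonical TSS the GC content was 82.8% at DNMT3A, the highest of the 8 genes, and 61.1% at TET1, with 157 and 62 CpG sites. HELLS, with the strongest E2F1 peak, had the lowest GC content, 57.8%, and 67 CpG sites.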
